A study of Mus musculus with 4 samples.

Results

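Cultured dermal papilla cells (DPCs), the mesenchymal cells taken from the base of the hair bulb, were compared between passage 9 and passage 3 in 1 RNA sequencing library each. These are 2 of the 4 libraries of the series, chosen by their labels, and the other 2 are dermal sheath cells (DSCs), the connective tissue cells that wrap the follicle, at the same passages. The cells were grown from whisker follicles of young adult C57BL/6J mice that carried an EGFP transgene, as the study's methods state, whereas the labels give the genotype as WT. All 4 groups were grown in DMEM, with no further treatment named in the labels, and differed by cell type and by passage, with passage 3 called low and passage 9 called high. Each group is 1 culture sequenced as 1 library, so no difference below has a replicate check, and passage cannot be told apart from whatever else set the 2 DPC cultures and libraries apart.

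The dermal papilla instructs the epithelium of the follicle when to grow and which hair to make. It does so through secreted Wnt, BMP and FGF factors and their antagonists, and through a matrix that it lays down around itself. Papilla cells plated on plastic spread, take on a contractile phenotype and divide, and with continued passage they lose part of their hair-inducing capacity, which is why their passage number is watched. The question here was which gene programs differed between low-passage and high-passage DPCs.

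Values are raw read counts per gene, which total 35340038 in low-passage and 34981284 in high-passage DPCs, and changes are differences of log2 CPM (counts scaled to the library's size), written as passage 9 over passage 3. A gene was called at a change of 2 or more on this log2 scale, which is 4-fold, and an interval behind a change is a 95% interval of counting error that compares 2 libraries, not 2 conditions. The labelled cell type was checked first. The papilla transcription factors Sox2 (1677 and 1491 counts at passages 3 and 9), Tbx18 (13516 and 3312) and Trps1 (2696 and 2164) were present at both passages, while Alpl, whose enzyme activity is used to stain the papilla, had only 8 and 10 counts. In the DSC libraries Sox2 had 269 and 178 counts, Tbx18 1810 and 1445, and Trps1 3578 and 4551, so the presence of these genes does not set papilla apart from sheath. Mitochondrial genes took 4.27% of the counts at passage 3 and 7.88% at passage 9, against 4.91% and 5.65% in the DSCs. Genes with short transcripts were lower in the high-passage DPC library: the median change was -0.33 in the fifth of genes with the shortest transcripts and 0.19 in the fifth with the longest. The part of these library features in the results below was not tested.

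Of 16734 genes measured, 933 (5.58%) had a level in high-passage DPCs that was 4-fold above that in low-passage DPCs or more, and 730 (4.36%) were lower by that fold. In DSCs the shares were 2.67% and 1.16%. The median change over all genes was 0.03 in DPCs, and 68.9% of genes changed by less than 2-fold. In 146 of the higher genes the passage 3 library had no count, and in 134 of the lower genes the passage 9 library had none. For these genes folds are lower bounds set against a floor of 3 counts. The bound itself was under 4-fold for 18 and 29 of them. By biotype, 711 of the rises and 593 of the falls were protein-coding. Long intergenic noncoding RNAs were more often among the higher genes (44 higher and 22 lower of 421), and processed pseudogenes among the lower (19 higher and 62 lower of 1080). RNA was measured in bulk, so fewer cells of a type and less RNA per cell cannot be told apart.

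**Figure D1:**
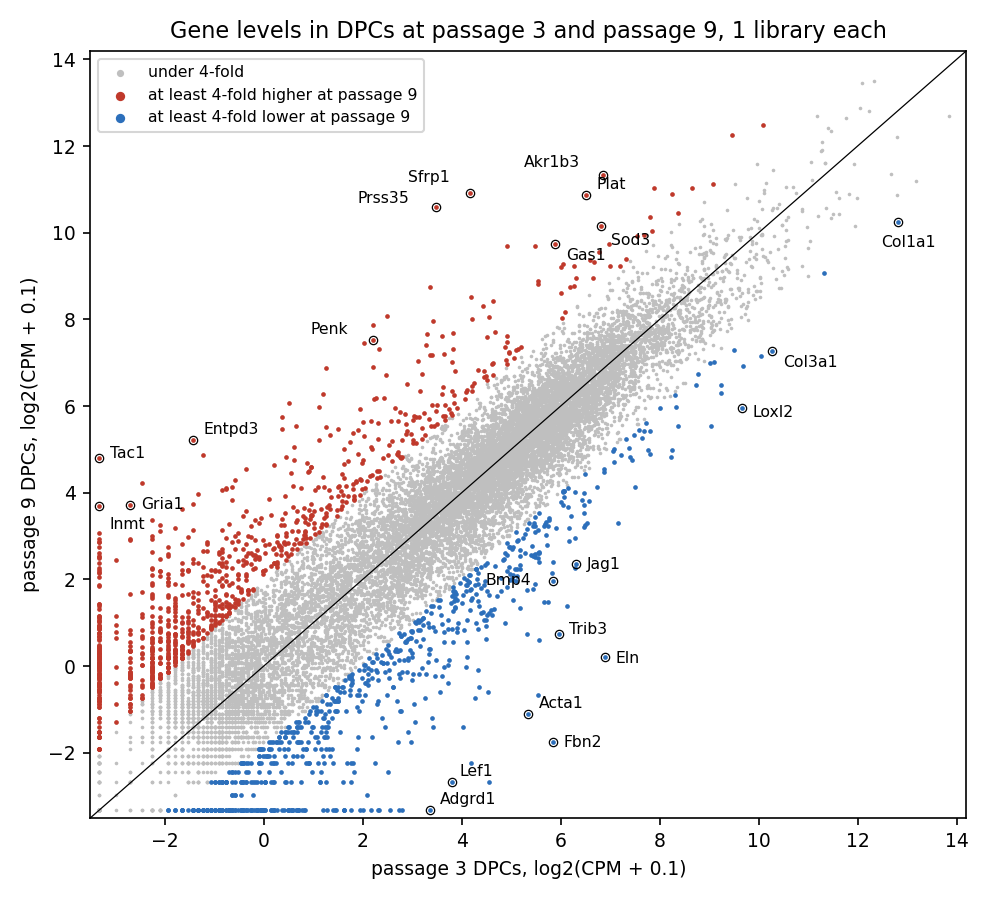
Level of each measured gene in the passage 3 (x axis) and passage 9 (y axis) DPC libraries, as log2 of CPM plus 0.1, with 1 point per gene. Red and blue points are the 933 higher and 730 lower genes called at passage 9, circles mark genes named in the text, and the line shows equal levels.

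Among the largest rises were Tac1, Prss35 and Sfrp1, which encode secreted proteins. Tac1 (ENSMUSG00000061762, chromosome 6, 7554879 to 7565834 on GRCm38), the precursor of substance P, had 0 counts in low-passage and 993 in high-passage DPCs, so it was at least 339-fold higher. Prss35 (chromosome 9, 86743649 to 86758443), a secreted protein related to serine proteases, went from 410 to 55190 counts, and Sfrp1, a secreted Wnt inhibitor on chromosome 8, from 661 to 69887. Their changes were 7.10 (6.97 to 7.25) and 6.76 (6.65 to 6.87). Both therefore moved from low levels to among the abundant transcripts of the cell.

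The other large rises were in genes of varied function. Gria1, a glutamate receptor subunit, had 2 and 472 counts, a change of 6.97 (6.06 to 10.97). Slitrk3 and Rims2, a synaptic adhesion protein and a scaffold of transmitter release, were listed at 0 counts at passage 3 and had 258 and 238 at passage 9, at least 88.2-fold and 81.4-fold higher. Rasgrf1, an exchange factor that activates Ras, also had no count at passage 3, with 298 at passage 9, at least 102-fold higher. Entpd3, an ectonucleotidase, had 10 and 1335 counts. Inmt, a methyltransferase, Adamts3, a procollagen protease, and Dmrtc1a also belonged to the largest rises, each with 0 counts at passage 3 and 461, 259 and 272 at passage 9. At passage 9 the levels of Gria1, Slitrk3 and Rims2 were modest, between 6.63 CPM for Rims2 and 13.2 CPM for Gria1, while Prss35 and Sfrp1 reached 1538 and 1947 CPM.

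Of the 12 largest falls, that of Fbn2 had the counting interval farthest from 0. Fbn2 (ENSMUSG00000024598, chromosome 18, 58008623 to 58210487), a fibrillin of microfibrils, went from 2119 to 7 counts, a change of -7.87 (-9.52 to -7.16). Eln (chromosome 5, 134702593 to 134747323), elastin itself, went from 4358 to 38 counts, a change of -6.74 (-7.31 to -6.35). Acta1, the actin of skeletal muscle, had 1495 and 13 counts. Lef1 (chromosome 3, 131110471 to 131224356), the Wnt effector that marks the papilla, had 508 and 2 counts and Piezo2, a channel opened by mechanical force, 859 and 2. The remaining falls reached 0 counts at passage 9. Adgrd1, an adhesion G protein-coupled receptor, had 373 counts at passage 3 and was at least 121-fold lower, and Adgrl4, a receptor of the same class known from endothelium, had 181 and was at least 58.8-fold lower. Me3, a mitochondrial malic enzyme, Sh2d6 and Cbln1 started from 252, 212 and 178 counts. Gm20537 and Gm45062 were also in this group, but each overlaps another gene on the same strand, so the reads cannot be assigned to them with certainty.

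**Figure D2:**
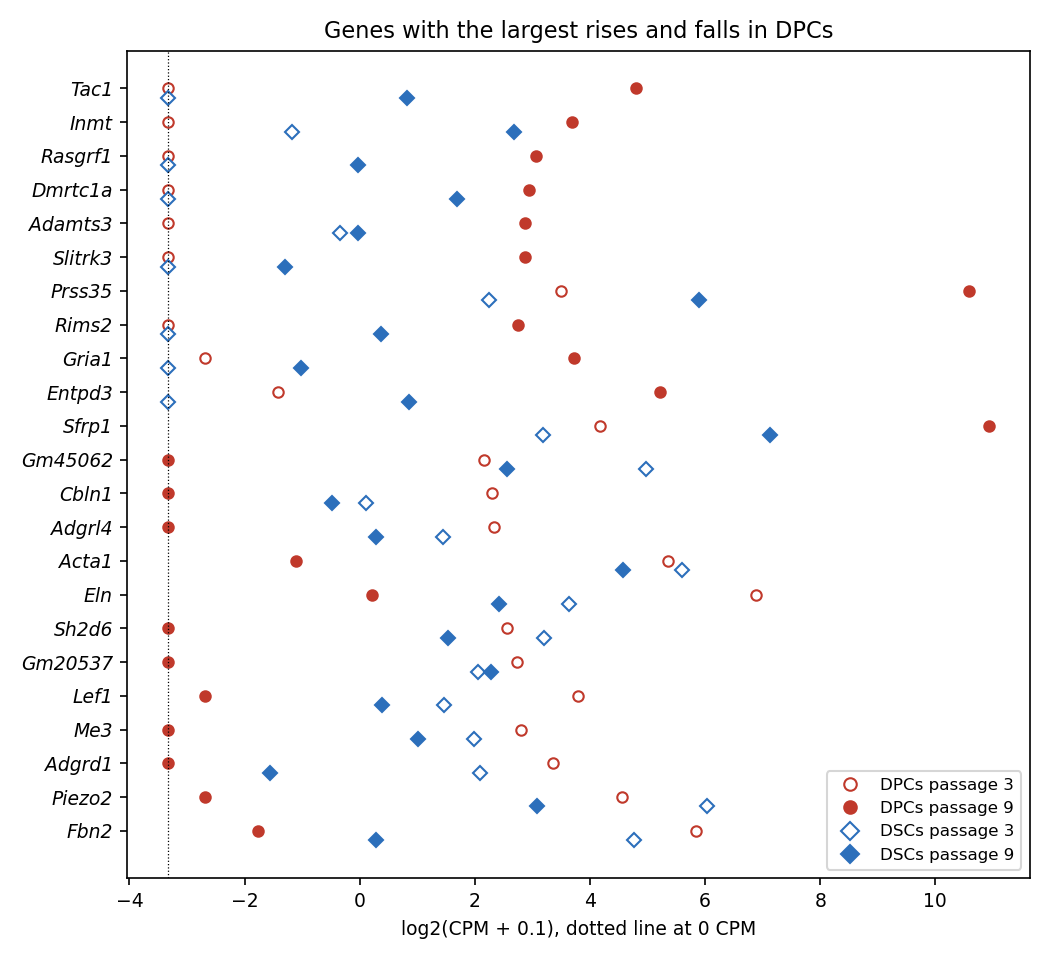
Level, as log2 of CPM plus 0.1, of 11 of the 12 genes with the largest rises and of the 12 with the largest falls in DPCs, ranked among protein-coding genes by the end of the counting interval nearest 0. Open symbols are passage 3 and filled symbols passage 9, circles DPCs and diamonds DSCs, 1 library each, and 7 of the 11 rising genes and 7 of the 12 falling genes have a DPC library at 0.

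The most abundant transcripts of the cells also changed rank. By deposited FPKM (fragment counts scaled to transcript length and library size, so that different genes can be compared), Eef1a1, a translation factor, led the low-passage library at 3705, followed by Acta2, smooth muscle actin, at 3692 and Lgals1, a galectin, at 3048. At passage 9 Spp1, osteopontin, led at 3655 after 692 at passage 3. Its count went from 39849 to 204612, a change of 2.40 (2.38 to 2.41), although it overlaps another gene on the same strand. Acta2 stood at 964 FPKM at passage 9, with 262118 and 67135 counts and a change of -1.93. Akr1b3 (chromosome 6, 34302434 to 34317478), the aldose reductase that turns glucose into sorbitol, entered the 8 most abundant genes: its FPKM went from 77.3 to 1663 and its count from 4286 to 92817, a change of 4.47 (4.43 to 4.52). In the DSC libraries Akr1b3 changed by 1.12. Akr1b8 and Akr1b10, close relatives of Akr1b3 whose reads may be shared with it, changed by 1.22 and 0.24 in DPCs. Bgn, a small proteoglycan, Fth1, a ferritin chain, and B2m, the light chain of MHC class I, had changes of 0.58, 0.87 and 1.16, under 4-fold.

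The changes were not spread evenly over the chromosomes. Among genes with at least 200 counts over the 2 DPC libraries, the 729 genes of chromosome 4 had a median change of -0.66 and 80.8% of them were lower at passage 9. The 359 genes of chromosome 16 had a median of -0.42, with 73.3% lower, and the 421 genes of chromosome 14 had a median of 0.35, with 33.3% lower. The medians of the other 17 nuclear chromosomes, chromosome Y left aside, lay between -0.12 and 0.18. So chromosomes 4, 16 and 14 stood outside the range of all others. In DSCs the medians of the same genes were -0.24, -0.15 and 0.03.

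The shift ran along the length of chromosome 4. In windows of 20 Mb its median lay between -0.73 and -0.49 in all 8 windows, each with 29 to 203 genes. On chromosome 16 the 5 windows lay between -0.52 and -0.35. On chromosome 14 the windows were less even: 3 windows from 20 to 80 Mb had medians of 0.32 to 0.45, while the window from 80 to 100 Mb, with 12 genes, had -0.55. Between the cell types at passage 3, the median difference of DPCs over DSCs was -0.01 for chromosome 4, -0.03 for chromosome 16 and 0.02 for chromosome 14, and at passage 9 it was -0.45, -0.29 and 0.28. The low-passage libraries were thus alike on these chromosomes and the high-passage libraries were not. Of all genes of chromosome 4, 76 of 1007 were at least 4-fold lower, or 7.55%, and 20 were higher, against 4.36% and 5.58% of all genes. DNA copy number was not measured, and its part in these medians was not tested. Members of the lists below that lie on chromosome 4 are named as such where they lead a result.

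**Figure D3:**
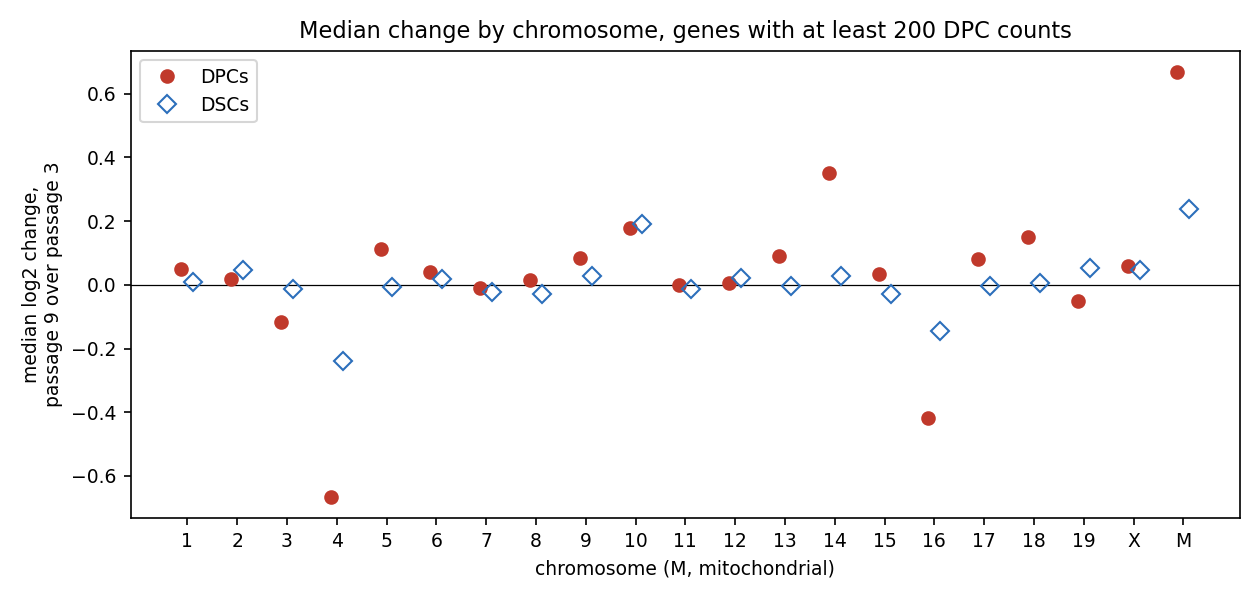
Median log2 change from passage 3 to passage 9 for the genes of each chromosome with at least 200 counts over the 2 DPC libraries. Filled circles are DPCs and open diamonds DSCs, and chromosome 4 (-0.66 in DPCs), chromosome 16 (-0.42), chromosome 14 (0.35) and the mitochondrial genes (0.67) lie farthest from 0.

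Genes that mark the dermal papilla in the follicle moved in different directions. Of 40 listed genes 35 were measured, and 6 were called higher and 5 lower, against 5.58% and 4.36% of all genes. The median change of the list was 0.27. Transcription factors and signals that the inductive papilla uses were among the falls. Lef1 fell from 508 to 2 counts, as above. Prdm1, the repressor Blimp1 that marks papilla precursors, fell from 630 to 38 counts, a change of -3.95 (-4.53 to -3.54). Bmp4, which keeps papilla cells inductive in culture, fell from 2104 to 137 counts, a change of -3.89 (-4.16 to -3.65). Hey1, a Notch effector, had 85 and 6 counts, and Sostdc1, a Wnt and BMP antagonist, 61 and 0, at least 19.8-fold lower. Tbx18 was close to the threshold with a change of -1.99 (-2.05 to -1.94).

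The papilla genes that rose were mostly secreted proteins. Notum, an enzyme that inactivates Wnt ligands, had 4 and 127 counts, a change of 4.49 (3.63 to 6.92), and no count in either DSC library. Col23a1, a transmembrane collagen, had 68 and 859 counts. Igfbp3, which binds insulin-like growth factors, had 842 and 6947 counts, a change of 3.08 (2.98 to 3.19), and Enpp2, autotaxin, had 25 and 207. The Wnt agonist Ndp and the BMP antagonist Nog started from 8 and 10 counts and reached 45 and 46. The remaining 24 genes, among them Sox2 (-0.13), Vcan (-0.23), Fgf7 (0.42), Fgf10 (0.65) and Wnt5a (1.69, from 4711 to 14803 counts), changed by less than 4-fold.

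**Figure D4:**
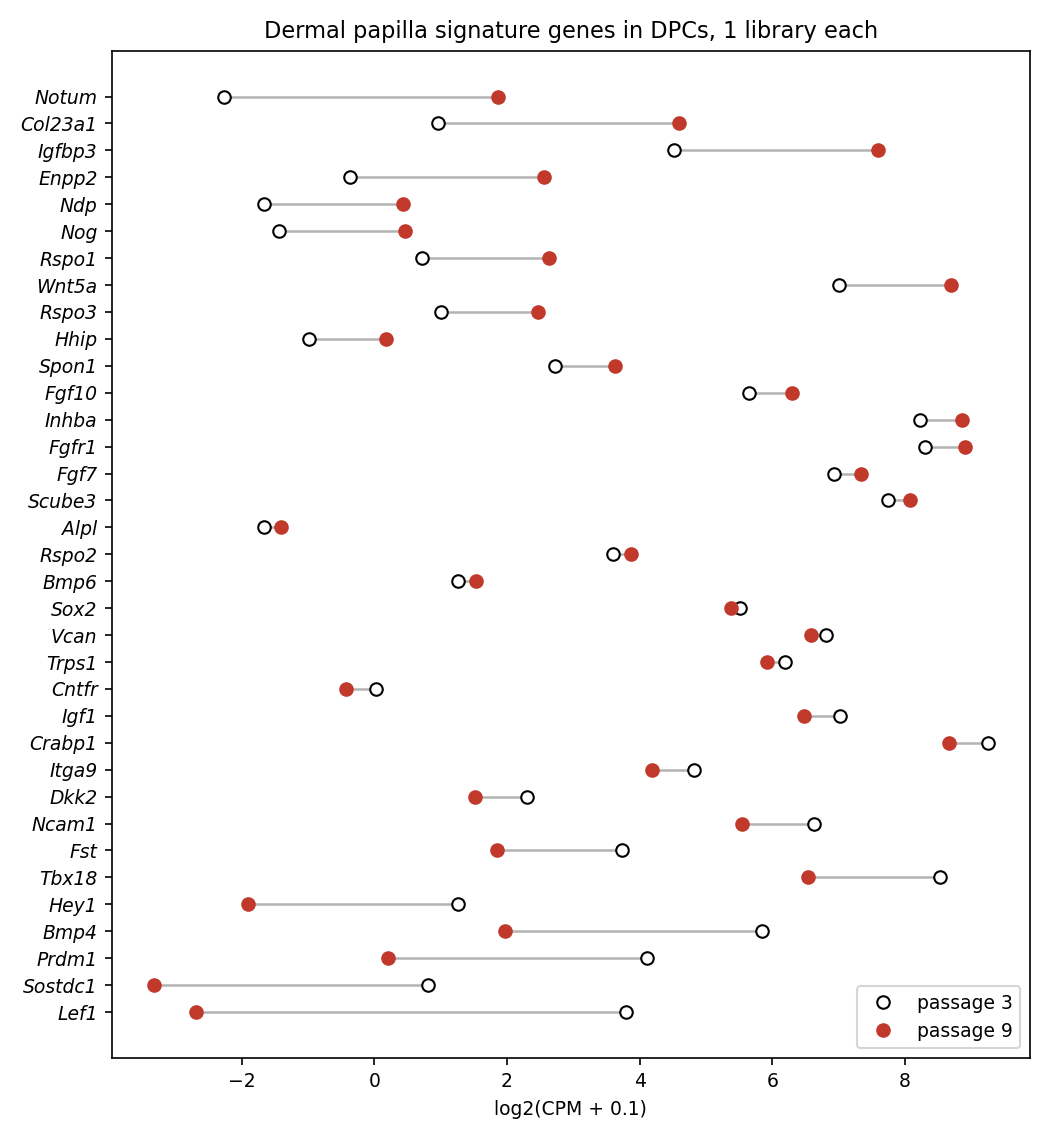
Level of the 35 measured dermal papilla signature genes in low-passage (open circles) and high-passage (red circles) DPCs, as log2 of CPM plus 0.1, ordered by the change between the 2 libraries. Lef1, Sostdc1, Prdm1, Bmp4 and Hey1 at the bottom are at least 4-fold lower at passage 9 and the 6 genes from Nog to Notum at the top at least 4-fold higher.

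Contractile genes, which cultured papilla and sheath cells express strongly, were lower in high-passage DPCs. Of 17 measured genes 4 were called lower and 1 higher, against 4.36% and 5.58% of all genes, and the median change was -1.37. Myh11, the smooth muscle myosin heavy chain, fell from 2882 to 168 counts, a change of -4.05 (-4.30 to -3.84), and Synpo2, an actin-bundling protein, from 1646 to 131, a change of -3.60 (-3.88 to -3.36). Actg2, enteric smooth muscle actin, fell from 39000 to 5129 counts and Mylk, the kinase that activates myosin, from 12147 to 1680. Myh11 and Mylk lie on chromosome 16, and without genes of chromosomes 4 and 16 the median of the list was -1.03. Tagln, Cnn1 and Tpm2 had changes of -1.65, -1.69 and -1.70, under the threshold. Itga8, an integrin subunit found with contractile cells, went the other way, from 6837 to 34714 counts. In DSCs the median of the list was 0.14, and Myh11 had 1063 and 3160 counts there.

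Surface markers by which mesenchymal stem cells are sorted gave 3 lower and 1 higher of 14, against 4.36% and 5.58% of all genes. Their median was -1.11. Ngfr, which also marks Schwann cells, had 144 and 0 counts. Vcam1, an adhesion receptor, fell from 2213 to 326 counts, a change of -2.72 (-2.90 to -2.56), and Mcam, an adhesion molecule of perivascular cells, from 8208 to 1545, a change of -2.37 (-2.45 to -2.29). Alcam rose from 397 to 1665 counts. The other 10 markers had changes between -1.83 for Ly6a and 1.42 for Pdgfra. Among the usual positive markers, Thy1, Cd44 and Nt5e had changes of -1.48, -1.20 and -1.54, whereas Eng had 0.96 and Itgb1 0.17.

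Genes of cell division moved in 1 direction. All 35 measured genes of G2/M and mitosis were at least 2-fold lower in high-passage DPCs, against 15.0% of all genes. Of them 29 were at least 4-fold lower, against 4.36% of all genes. The median was -2.67 and the range -4.20 to -1.04. In DSCs 29 of the 35 were at least 2-fold lower, against 6.21% of all genes there, and the median was -1.28. Cdc20, which activates the anaphase-promoting complex, fell from 1863 to 97 counts, a change of -4.20 (-4.54 to -3.93). Kif2c, a kinesin that depolymerizes microtubules, fell from 1323 to 88, a change of -3.85 (-4.20 to -3.56). Both lie on chromosome 4. Ccnb1, cyclin B1 on chromosome 13, fell from 2106 to 186 counts, a change of -3.45 (-3.69 to -3.25), and Kif23 on chromosome 9, a kinesin of cell division, from 1214 to 139, a change of -3.07 (-3.35 to -2.84). The kinases Plk1 (1747 and 220 counts) and Aurkb (839 and 116) and the transcription factor Foxm1 (1894 and 347) fell as well. Without chromosomes 4 and 16 the median of the list was -2.66.

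Promoters of mitotic genes are known to carry a CHR element, TTTGAA, beside CCAAT boxes, through which the DREAM and MuvB complexes act. The 4 genes shown had the largest falls among the G2/M genes whose promoters were searched, and were chosen because these genes moved together. Ccna2 and Cdc25c, with changes of -3.24 and -3.28, were not searched. The windows shown run from 250 bases before to 50 bases after the start site. They are RefSeq sequences on GRCm38.p6, 5′ to 3′ in the direction of the gene, with the CHR, the CCAAT box and the E2F sequences, which are TTTCCCGC or else TTTGGCGC, in capitals wherever they occurred on either strand. A match on the opposite strand reads TTCAAA for the CHR, and for the box it reads ATTGG.
Cdc20: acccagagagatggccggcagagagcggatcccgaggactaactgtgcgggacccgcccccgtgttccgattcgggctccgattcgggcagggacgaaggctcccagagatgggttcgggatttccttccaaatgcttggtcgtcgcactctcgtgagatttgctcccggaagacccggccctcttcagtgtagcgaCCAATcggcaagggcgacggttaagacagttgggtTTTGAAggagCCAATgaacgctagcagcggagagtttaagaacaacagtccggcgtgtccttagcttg
Kif2c: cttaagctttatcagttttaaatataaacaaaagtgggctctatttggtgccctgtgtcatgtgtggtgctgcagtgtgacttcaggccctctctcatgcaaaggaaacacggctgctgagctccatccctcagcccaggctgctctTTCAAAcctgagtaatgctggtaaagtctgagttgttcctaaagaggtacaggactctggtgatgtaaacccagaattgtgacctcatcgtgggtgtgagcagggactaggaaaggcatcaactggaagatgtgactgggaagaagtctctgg
Ccnb1: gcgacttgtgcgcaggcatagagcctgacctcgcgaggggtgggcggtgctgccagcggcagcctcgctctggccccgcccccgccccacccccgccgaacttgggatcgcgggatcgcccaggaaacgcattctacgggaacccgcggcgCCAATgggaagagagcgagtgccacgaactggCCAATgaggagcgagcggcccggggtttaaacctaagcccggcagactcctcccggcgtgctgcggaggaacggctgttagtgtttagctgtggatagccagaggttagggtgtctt
Kif23: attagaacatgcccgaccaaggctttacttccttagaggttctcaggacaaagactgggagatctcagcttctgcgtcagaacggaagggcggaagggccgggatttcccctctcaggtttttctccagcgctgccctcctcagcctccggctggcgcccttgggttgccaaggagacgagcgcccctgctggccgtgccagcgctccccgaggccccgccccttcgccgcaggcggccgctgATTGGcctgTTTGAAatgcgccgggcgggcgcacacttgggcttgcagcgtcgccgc
They come from chr4:118437294-118437593, chr4:117178723-117179022, chr13:100786437-100786736 and chr9:61946750-61947049, all on the minus strand. In Cdc20 the TTTGAA starts 18 bases before the start site, between CCAAT boxes that start 53 and 8 bases before it. Ccnb1 held CCAAT boxes at 99 and 67 bases before the start site and no TTTGAA, and Kif2c held TTTGAA alone. Over the list, 21 of 27 genes with a searched promoter held TTTGAA and 21 held CCAAT, and none held an E2F sequence. The shares with TTTGAA and CCAAT were 18.1% and 37.9% of all 27025 promoters searched. Among those of measured genes they were 11.9% and 38.6%. A match is a description of the letters and does not show binding.

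DNA replication genes followed with smaller changes. Of 36 measured genes 27 were at least 2-fold lower and 7 at least 4-fold lower, against 15.0% and 4.36% of all genes, and the median was -1.44. In DSCs 14 of the 36 were at least 2-fold lower, against 6.21% of all genes there, and the median was -0.92. Cdc6, which loads the replicative helicase, fell from 554 to 68 counts, a change of -2.96 (-3.38 to -2.62), and Orc1, a subunit of the origin complex on chromosome 4, from 273 to 36. Mcm5, a helicase subunit, fell from 1913 to 289 counts, a change of -2.68 (-2.87 to -2.51), and Uhrf1, which maintains DNA methylation, from 1427 to 217. Pcna, the sliding clamp, had 3121 and 1522 counts, and Mcm7 a change of -0.79. The range within the list, from -2.96 to 0.54 for Gins3, was thus wide. The E2F sequences were found in 10 of 30 replication gene promoters, against 1.63% of all promoters and 3.02% of those of measured genes, and TTTGAA in 5 of 30. The promoters of the 2 replication genes with the largest falls among those that held an E2F sequence are shown with that sequence, on the opposite strand in each, in capitals.
Cdc6: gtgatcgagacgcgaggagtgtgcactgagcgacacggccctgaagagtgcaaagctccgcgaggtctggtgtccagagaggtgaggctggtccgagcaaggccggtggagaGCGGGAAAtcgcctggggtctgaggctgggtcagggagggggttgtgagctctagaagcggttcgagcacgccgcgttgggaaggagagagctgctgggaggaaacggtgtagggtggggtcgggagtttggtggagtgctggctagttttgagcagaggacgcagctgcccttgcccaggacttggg
Mcm5: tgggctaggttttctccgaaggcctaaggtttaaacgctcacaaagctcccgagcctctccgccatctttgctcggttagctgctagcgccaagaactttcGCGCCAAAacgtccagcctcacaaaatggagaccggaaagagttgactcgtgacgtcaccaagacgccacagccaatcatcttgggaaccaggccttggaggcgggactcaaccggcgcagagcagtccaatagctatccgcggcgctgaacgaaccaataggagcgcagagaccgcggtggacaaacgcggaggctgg
They come from chr11:98907901-98908200 and chr8:75109259-75109558 on the plus strand. The matches start 138 and 149 bases before the start site.

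Regulators of the step into S phase varied. E2f2 and E2f8 were called lower, with 78 and 6 counts for E2f2, on chromosome 4, and 709 and 128 for E2f8, which represses E2F genes. Cyclin D1, Ccnd1, had 20280 and 7695 counts, a change of -1.36, while Ccnd3 had 1365 and 4006, a change of 1.59. None of 7 CDK inhibitor genes was called, a list too small to tell this apart from the 5.58% and 4.36% of all genes called higher and lower. Cdkn2a, the locus of p16 and p19, had 719 and 1538 counts, a change of 1.13 (1.00 to 1.26), although its chromosome 4 had a median below 0, and its neighbour Cdkn2b had 1153 and 750. Cdkn1a, which encodes p21, had 13892 and 10878 counts, a change of -0.32. Of 22 p53 target genes 2 were called higher, Sesn1 (509 and 2000 counts) and Perp (9 and 75), and 1 lower, Gdf15 (193 and 34). These counts lie close to the 5.58% and 4.36% of all genes, and the median of the list was 0.18.

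**Figure D5:**
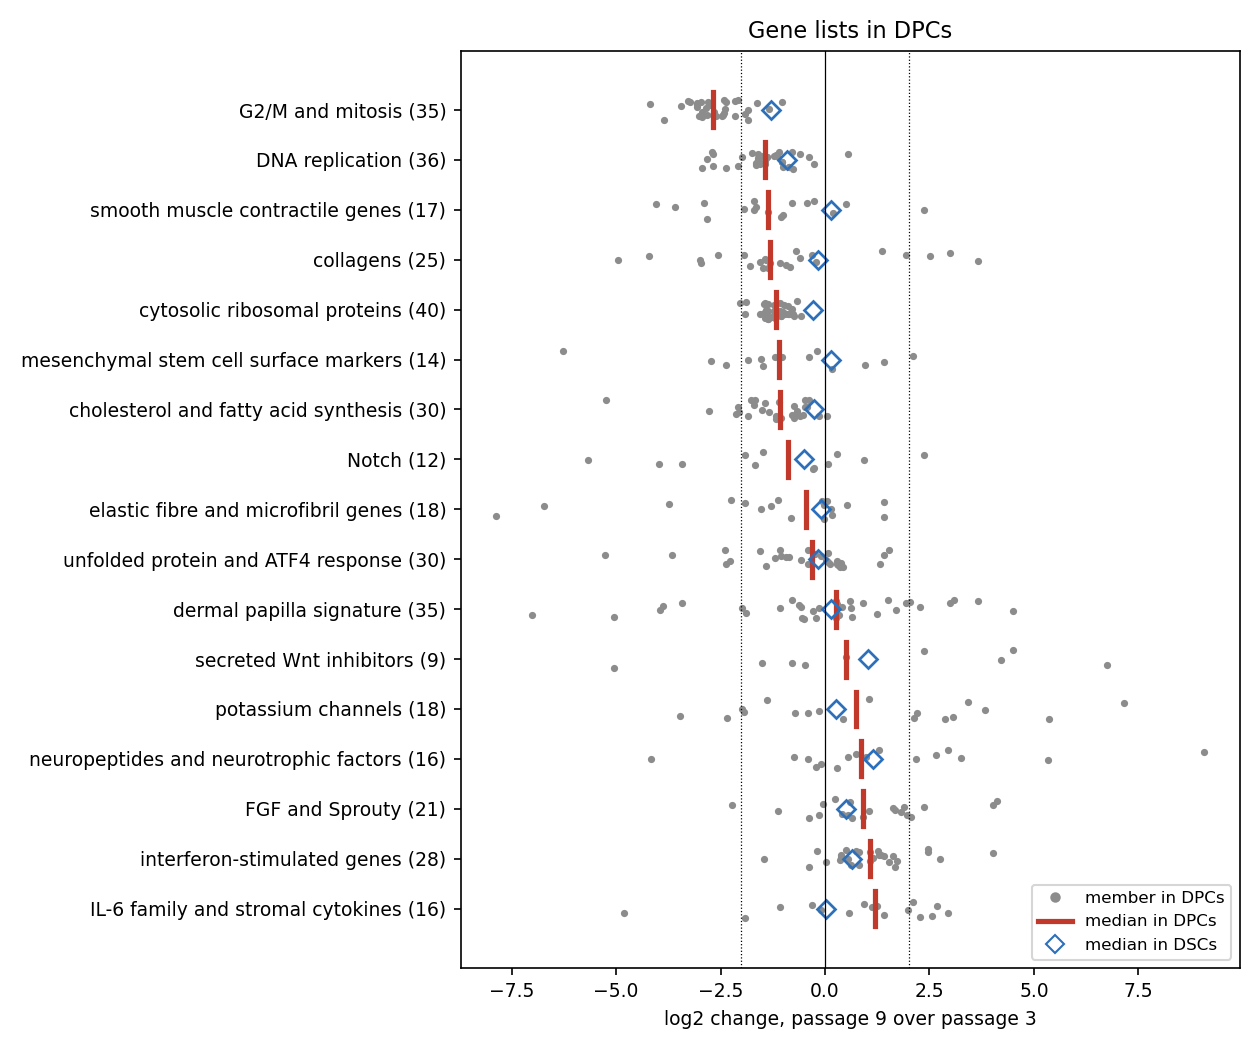
Log2 change from passage 3 to passage 9 of the members (grey points) of 17 of the 48 gene program lists, with the number of measured members in brackets, the median in DPCs as a red bar and the median in DSCs as an open diamond. The G2/M list lies lowest with a DPC median of -2.67 and the IL-6 family list highest with 1.18, and dotted lines mark 4-fold.

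Genes of protein synthesis were lower as groups while few members reached 4-fold. All 40 cytosolic ribosomal protein genes were below 0, with a median of -1.18. Of them 29 were at least 2-fold lower and 1 was called, against 15.0% and 4.36% of all genes. Rpl11 (11956 and 3101 counts) and Rps20 (22113 and 5841), with changes of -1.91 and -1.88, lie on chromosome 4, whose 5 members had a median of -1.88, and the 35 members outside chromosomes 4 and 16 had a median of -1.11. These are short transcripts, a class that was lower as a whole in the high-passage library (median -0.33, as above). Translation factors had a median of -0.46 in 29 genes and ribosome biogenesis and Myc target genes -0.67 in 28, with none called. Eif4h (10887 and 2680 counts) and Eif4ebp1 (5310 and 1344), which regulate initiation, were closest to the threshold with changes of -1.99 and -1.94.

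Genes of lipid synthesis also lay below the median of all genes. Of 30 genes of cholesterol and fatty acid synthesis 5 were called lower and none higher, against 4.36% and 5.58% of all genes. The median was -1.08. Hmgcs1 (11670 and 2732 counts), Idi1 (4889 and 1115) and Fdps (7070 and 1567), enzymes of the mevalonate pathway, fell by 2.06, 2.09 and 2.14 on the log2 scale. The transcription factors of the pathway, Srebf1 and Srebf2, had changes of -0.54 and -0.48. Without chromosomes 4 and 16 the median of the list was -0.92.

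The 27 nuclear-encoded genes of the respiratory chain all lay below 0, with a median of -0.62. Genes of the mitochondrial genome had a median of 0.67 among those with 200 or more counts. The part of transcript length, described above, in these medians was not tested. Of the nuclear genes Sdhb, on chromosome 4, was lowest with 3572 and 1195 counts. In the glycolysis and hypoxia list 2 of 26 genes were called, both lower, against 4.36% of all genes called lower. Ndrg1, which is induced by low oxygen, fell from 1976 to 97 counts, a change of -4.29 (-4.62 to -4.02), and Egln3, an oxygen-sensing hydroxylase, from 206 to 42. Vegfa, another hypoxia target, had 2851 and 2442 counts, a change of -0.19.

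Of 30 genes of the unfolded protein and ATF4 responses 5 were called lower and none higher, against 4.36% and 5.58% of all genes. All 5 serve amino acid supply or its signalling, and the median of the list was -0.32. Trib3, a pseudokinase induced by amino acid shortage, fell from 2294 to 56 counts, a change of -5.27 (-5.73 to -4.94). Slc7a11, the cystine importer, fell from 493 to 36 and Slc7a5, a leucine transporter, from 7359 to 1371. Asns and Phgdh, which make asparagine and serine, fell from 4977 to 936 and from 7561 to 1528. Among genes of protein folding in the endoplasmic reticulum, Hspa5, Hsp90b1 and Calr had changes of -0.09, 0.30 and 0.28, Dnajb9 and Dnajc3 had 1.54 and 1.31, and Sdf2l1 had -1.05. The stress sensor Ern1 had a change of 1.40. Atf4 itself had 14063 and 17601 counts.

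Among 23 antioxidant genes 3 fell and 1 rose, against 4.36% and 5.58% of all genes. The metallothioneins Mt1 (3161 and 507 counts) and Mt2 (1279 and 149), which bind zinc, fell by 2.60 and 3.05 on the log2 scale, and Txn1, thioredoxin on chromosome 4, fell from 6369 to 973 counts. Sod3, the secreted superoxide dismutase, rose from 4132 to 40960 counts, a change of 3.35 (3.30 to 3.39). Immediate early genes gave 3 rises and no fall in 22, against 5.58% and 4.36% of all genes. The rises were Nr4a2 (119 and 1284 counts), Ier3 (830 and 3694) and Fos (76 and 303). The median of the list was -0.07 and 12 members lay below 0. The YAP target, TGF-beta and lysosome lists, of 22, 18 and 31 genes, held no called gene. Of all genes 5.58% were called higher and 4.36% lower. Ccn2, a target of YAP and TGF-beta, was near the threshold with 74883 and 18400 counts, and Ctsb, a lysosomal protease, had 17630 and 60338.

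In the Wnt pathway, whose signals the papilla both sends and receives, rises and falls occurred in each of 3 lists. Of 26 ligands, R-spondins and receptors 2 rose and 1 fell, close to the 5.58% and 4.36% of all genes, with a median of 0.76. Wnt2b rose from 47 to 296 counts and the receptor Fzd6 from 86 to 456, and Wnt4, on chromosome 4, fell from 94 to 4, with an interval of -6.42 to -3.11. Of 9 secreted inhibitors 4 rose, Sfrp1, Notum, Sfrp2 and Dkk3, and 1 fell, Sostdc1, against 5.58% and 4.36% of all genes. Dkk3 went from 14871 to 74814 counts, a change of 2.37 (2.34 to 2.39), and Sfrp2 from 0 to 32, at least 10.9-fold higher. The median of the inhibitors was 0.50, with 5 genes above 0 and 4 below. The inhibitors summed to 471 CPM at passage 3 and 4075 at passage 9. In DSCs their median was 1.02, with 7 of the 9 above 0.

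Nuclear effectors and feedback genes gave 1 rise and 3 falls in 17, Lef1 included, against 5.58% and 4.36% of all genes. Axin2, a feedback inhibitor, had 4 and 218 counts, a change of 5.26 (4.43 to 7.69). Tcf7, a partner of beta-catenin like Lef1, fell from 142 to 26 counts, and Nkd1, another feedback gene, from 205 to 47. Sfrp1 and Axin2 are among 10 genes that the study chose from these libraries as changed with passage, so their direction here is not independent evidence. The other chosen genes not described elsewhere were Crmp1 (113 and 641 counts), Dach1 (14 and 59), Nfatc2 (60 and 6) and L1cam (88 and 22). The median of the effector list was -0.01 by counts, and by deposited FPKM with a pseudocount of 0.1 it was 0.30.

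In the BMP list 3 of 27 genes rose and 1, Bmp4, fell, against 5.58% and 4.36% of all genes, with a median of 0.10. Bmp3, a ligand that opposes other BMPs, rose from 146 to 1432 counts, a change of 3.31 (3.08 to 3.59), and Ranbp3l, an exporter of Smads that the study also chose, from 17 to 601. The immediate BMP targets Id1, Id2 and Id3 had changes of 0.88, 1.56 and 0.06, and Id4 -1.58. In the Notch list 3 of 12 genes fell and 1 rose, against 4.36% and 5.58% of all genes, with a median of -0.88. The ligand Jag1, also chosen by the study, fell from 2924 to 179 counts, a change of -3.98 (-4.22 to -3.78). The Notch target Heyl, on chromosome 4, had 94 and 0 counts, at least 30.6-fold lower. Hes1, on chromosome 16, and Notch1 had changes of -1.91 and -1.67. The ligand Dll1 rose from 43 to 225 counts. Without chromosomes 4 and 16 the Notch median was -0.27.

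In the FGF list 4 of 21 genes were called higher and 1 lower, against 5.58% and 4.36% of all genes, and the median was 0.92, or 0.65 with Fgf16, at 0 and 4 counts, held at its bound. Fgf18 rose from 13 to 248 counts, a change of 4.11 (3.49 to 5.22), and Fgf1 from 25 to 427, a change of 4.03 (3.55 to 4.77). Etv1, a transcription factor that FGF signalling induces, rose from 905 to 4583. Fgf9 was called on only 3 and 18 counts. Fgf13, an intracellular member of the family, fell from 653 to 134.

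Gas1, a Hedgehog co-receptor first known as a growth arrest gene, rose from 2186 to 30926 counts, a change of 3.86 (3.80 to 3.92). The Hedgehog targets Gli1, Ptch1 and Hhip had changes of -0.23, 0.66 and 1.24, the last on 15 and 37 counts. Igfbp3 and Igfbp6 (505 and 2059 counts) rose, whereas Igf1 (4790 and 3203) and its receptor Igf1r changed by -0.54 and -0.28. Vegfd, a lymphatic growth factor, rose from 513 to 4624 counts, a change of 3.20 (3.08 to 3.34), and Hgf from 6 to 67. The VEGF receptor Flt1 fell from 619 to 127.

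Collagen genes were mostly lower in high-passage DPCs. Of 25 collagens 5 were called lower and 3 higher, against 4.36% and 5.58% of all genes. The median was -1.31, and in DSCs it was -0.17. Col1a1, a chain of type I collagen, fell from 266500 to 43703 counts, a change of -2.57 (-2.59 to -2.56), and Col3a1 from 45727 to 5565, with an interval of -3.04 to -2.96. Col1a2, the other chain of type I, had 239471 and 94054 counts, a change of -1.31. Col18a1 fell from 2640 to 325. Col14a1 and Col15a1, the latter on chromosome 4, had 57 and 33 counts at passage 3 and 0 at passage 9. Besides Col23a1, the basement membrane chains Col4a3 (13 and 114 counts) and Col4a4 (9 and 59) rose. Col12a1, a fibril-associated collagen, had 161274 and 403758 counts, a change of 1.36, and at passage 9 it had more counts than any other collagen of the list.

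Of 18 elastic fibre genes 4 were called lower and none higher, against 4.36% and 5.58% of all genes. Beside Fbn2 and Eln these were Fbn1 (93733 and 19222 counts) and the crosslinking enzyme Loxl2 (29922 and 2208, a change of -3.72). The exons of Loxl2 share their strand with an overlapping gene. The related enzyme Lox had 104322 and 46840 counts, a change of -1.12, and Loxl1, Loxl3 and Loxl4 had changes between -0.08 and -0.01. In the basement membrane list Lama1 alone of 14 genes was called, with 41 and 0 counts, against 4.36% of all genes called lower.

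Proteoglycans and matricellular genes gave 6 rises and 5 falls of 28, against 5.58% and 4.36% of all genes. The small leucine-rich proteoglycans Ogn (910 and 12346 counts), Omd (239 and 1043) and Aspn (11281 and 68252) rose, with a change of 3.80 (3.70 to 3.90) for Ogn. Spp1, Thbs3 and Tnxb rose as well. Has2, which makes hyaluronan, fell from 247 to 14 counts, a change of -3.94 (-5.00 to -3.33). Ccn4 and Ccn5, secreted CCN proteins, fell from 30416 to 4362 and from 22181 to 2832. Acan, aggrecan, had 108 and 22 counts, and Lum 8 and 0, at least 2.60-fold lower.

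Among 25 metalloproteinases and inhibitors 6 fell and 1 rose, against 4.36% and 5.58% of all genes. The rise was Mmp3, stromelysin, with 146 and 6252 counts, a change of 5.44 (5.22 to 5.70); it is another gene the study chose. Adamts12 (11160 and 1143 counts), Adamts5 (11801 and 2257), Adam19 (3250 and 469), Adam12 (5465 and 1041), Mmp23 (1578 and 240) and Mmp9 (114 and 4) fell. The plasminogen activators went opposite ways. Plat, the tissue type, rose from 3352 to 67277 counts, a change of 4.36 (4.31 to 4.41), and Plau, the urokinase type, fell from 1647 to 203, a change of -2.97 (-3.20 to -2.77).

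Of 17 cadherins and cell adhesion molecules 4 rose and 6 fell, against 5.58% and 4.36% of all genes. The median was -0.87, and it became 0.03 when only genes with a mean count of at least 100 were kept. Cdh13, a cadherin without a cytoplasmic part, rose from 4621 to 30555 counts, a change of 2.76 (2.72 to 2.81), and Ncam2 from 42 to 241. Cdh10 fell from 222 to 22. The other falls, Cdh3, Cdh4, Cdh5, Cdh19 and Cadm3, started from 74 counts or fewer, and Cdh3 is another gene the study chose. Of 18 integrin subunits the laminin receptor subunit Itga6 fell from 455 to 32 counts, a change of -3.72 (-4.36 to -3.28), and Itga5, which binds fibronectin, from 20190 to 4653, while Itga8 and Itga10 (78 and 438) rose.

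Axon guidance genes gave 5 falls and 2 rises of 31, against 4.36% and 5.58% of all genes. Outside chromosomes 4 and 16, 2 of 25 fell and 2 rose. Robo2, a Slit receptor on chromosome 16, fell from 594 to 10 counts, a change of -5.62 (-6.92 to -4.97). Epha3 (3290 and 337) lies on chromosome 16 as well and Ephb2 (2474 and 590) on chromosome 4. Ntn1, netrin, fell from 2865 to 580 and its receptor Unc5b from 7748 to 1751. The semaphorins Sema3b (407 and 2130 counts) and Sema5a (801 and 3999) rose. The median was -0.68 and, without chromosomes 4 and 16, -0.11.

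Potassium channel genes, which set the membrane potential, rose more often than they fell. Of 18 measured channel genes 8 were called higher and 2 lower, against 5.58% and 4.36% of all genes, and the median was 0.73, or 0.42 without chromosomes 4 and 16. Kcnh1, an ether-a-go-go channel, rose from 10 to 475 counts, a change of 5.36 (4.71 to 6.68). Kcnk2, a channel that opens on stretch, rose from 64 to 915 counts, a change of 3.83 (3.51 to 4.26), and Kcnj2, an inward rectifier that sets the resting potential, from 72 to 601. Kcnh2, Kcnq5, Kcne4 and Kcnj15 rose as well. Kcnt2 fell from 88 to 6 counts and Kcnk6 from 97 to 17. Most of these channels had few counts at passage 3: only Kcnj15 among the 8 had more than 100.

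Neuropeptide and neurotrophic factor genes gave 6 rises and 1 fall of 16, against 5.58% and 4.36% of all genes, with a median of 0.86. Penk, the precursor of enkephalins, rose from 166 to 6605 counts, a change of 5.33 (5.13 to 5.58), although it lies on chromosome 4, and Tac1 was described above. The heparin-binding growth factors Ptn (309 and 1917 counts) and Mdk (17 and 175) rose, as did Vip (60 and 272) and Nrtn (4 and 42). Nppb, on chromosome 4, had 32 and 0 counts. In DSCs the median was 1.16 and Penk changed by 0.53.

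In the list of IL-6 family and stromal cytokines 5 of 16 genes rose and 1 fell, against 5.58% and 4.36% of all genes. The median was 1.18. Tnfrsf11b, osteoprotegerin, rose from 8267 to 47292 counts, a change of 2.55 (2.52 to 2.59). Lif (82 and 631 counts) and its receptor Lifr (293 and 1840) rose by 2.95 and 2.68, and the related cytokines Ctf1 (43 and 209) and Il11 (26 and 115) rose too. Il6 itself had 51 and 0 counts, at least 16.6-fold lower. Osmr, a receptor subunit of the family, had a change of 1.98. None of 11 chemokine ligands was called, a list too small to tell this apart from the 5.58% and 4.36% of all genes called higher and lower. Ccl2, which attracts monocytes and had the most counts of the 11 at passage 9, had 5675 and 14639 and a change of 1.40.

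Interferon-stimulated genes leaned upward. Of 28 measured genes 15 had a 2-fold or larger increase and 1 a decrease of that size, against 16.1% and 15.0% of all genes. Of the 28, 4 rose by 4-fold or more, against 5.58% of all genes. The median was 1.07. In DSCs it was 0.65, with 7 genes at least 2-fold higher against 8.55% of all genes there. Ifi44 rose from 145 to 962 counts, a change of 2.75 (2.51 to 3.03). Ifit1, which blocks translation of viral RNA, rose from 268 to 1461, a change of 2.47 (2.29 to 2.68), and Rtp4 from 100 to 545. Mx1 had 0 and 28 counts. Irf1, which acts upstream, had a change of -0.38. The core of the interferon-stimulated response element (GAAA, then any 2 bases, then GAAA) was found on either strand in 11 of 20 promoters of the list, against 3.49% of all promoters and 2.93% of those of measured genes. The 2 genes with the largest rises among those that held it are shown with the element, here on the opposite strand, in capitals.
Ifit1: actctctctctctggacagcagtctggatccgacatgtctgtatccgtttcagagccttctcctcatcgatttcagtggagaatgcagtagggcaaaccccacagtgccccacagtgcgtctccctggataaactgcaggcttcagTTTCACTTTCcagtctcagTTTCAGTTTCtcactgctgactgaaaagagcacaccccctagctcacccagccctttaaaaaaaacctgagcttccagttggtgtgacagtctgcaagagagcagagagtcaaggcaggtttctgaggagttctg
Ifit3: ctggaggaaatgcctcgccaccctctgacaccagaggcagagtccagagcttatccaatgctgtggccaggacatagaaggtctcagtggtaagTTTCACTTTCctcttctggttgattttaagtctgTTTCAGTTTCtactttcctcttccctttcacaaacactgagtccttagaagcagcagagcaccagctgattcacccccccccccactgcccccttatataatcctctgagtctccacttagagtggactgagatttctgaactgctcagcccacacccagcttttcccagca
They come from chr19:34640639-34640938 and chr19:34583279-34583578, on the plus strand. Each holds the element at 2 places, 104 and 85 bases before the start site in Ifit1 and 156 and 122 bases before it in Ifit3, whose counts were 326 and 1061. The 16 antigen presentation genes had a median of 0.23 and none was called, against 5.58% and 4.36% of all genes called higher and lower.

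Of 17 complement genes 4 fell and 2 rose, against 4.36% and 5.58% of all genes. Outside chromosomes 4 and 16, 1 of 13 fell and 1 rose. The C1q chains C1qa (401 and 27 counts), C1qb (458 and 49) and C1qc (480 and 24), products of macrophages that lie side by side on chromosome 4, fell by 3.77, 3.14 and 4.18 on the log2 scale. Masp1, a protease of the lectin pathway, rose from 2918 to 17780 counts, a change of 2.64 (2.59 to 2.70). C4b rose from 16 to 90 counts, and Cd55, a membrane inhibitor, fell from 65 to 11. C1ra and C1s1, which fibroblasts make, had changes of 1.93 and 1.75.

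In the adipogenic and retinoid list 4 of 22 rose and 3 fell, against 5.58% and 4.36% of all genes. Genes of vitamin A handling were among its larger single changes. Aldh1a3, which makes retinoic acid, fell from 1463 to 56 counts, a change of -4.63 (-5.08 to -4.29), and Aldh1a1, which makes it too, rose from 61 to 445. Stra6, the receptor that takes up retinol, had 0 and 128 counts, at least 43.8-fold higher. Cyp26b1, which degrades retinoic acid, rose from 841 to 3506. In the osteogenic and chondrogenic list Spp1 rose and Col10a1 fell from 2863 to 276 counts, a change of -3.33 (-3.52 to -3.16). Of 29 homeobox and patterning factors 2 were called lower and none higher, against 4.36% and 5.58% of all genes. They were Eya2 (164 and 8 counts) and Dach2 (83 and 10), and the median of the list was 0.00.

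Markers of other cells were low and moved as follows. Of 9 measured immune markers 5 fell, against 4.36% of all genes. The 9 summed to 147 CPM at passage 3 and 69.2 at passage 9, most of it from Lyz2 (3396 and 1963 counts). Cd3e and Cd74, which define T lymphocytes and antigen-presenting cells, did not reach the count minimum. Schwann and glial markers summed to 15.7 and 6.24 CPM, and 5 of them, Ngfr, Sox10, Foxd3, Cdh19 and Erbb3, went to 0 counts from 18 to 144, with a median over 8 genes of -3.59, or -2.76 with these held at their bounds. The immune and Schwann genes among the falls above, C1qa, C1qb, C1qc, Ngfr and Cdh19, moved together with these markers, whose part in those falls was not tested. Of 14 keratinocyte markers 5 were measured, with sums of 5.65 and 10.5 CPM, and Dsp (10 and 184 counts) and Perp rose while Krt10, Sfn and Trp63 had changes between -0.82 and -0.48. Endothelial markers summed to 4.32 and 5.99 CPM, with Tek and Cdh5 at 0 at passage 9 and Erg at 14 and 147 counts. Melanocyte markers were measured for 2 of 8 genes and summed to 11.2 and 28.3 CPM, with Tyr, Tyrp1 and Dct at 0 in both libraries. Skeletal muscle markers summed to 42.6 and 1.53 CPM, and Acta1 was the only one called. In contrast to these low levels, general fibroblast markers summed to 28210 CPM at passage 3 and 9833 at passage 9. Col1a1, Col3a1 and Lum fell among 12, against 4.36% of all genes, while Vim, Twist1 and Prrx1 had changes of -0.39, 0.05 and 0.23.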

How the data were processed

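RNA sequencing gave 1 library for each of 4 groups, taken from the labels. The authors deposited raw counts per gene, which were not normalized, and FPKM per gene, in which the authors had scaled for transcript length and sequencing depth. Submitters' processing notes name Bowtie 0.12.2 and the builds mm8 and mm9, but gene positions matched GENCODE M21 (GRCm38) for 94.2% of 51633 shared IDs. The counting program and the use of strand are not given in the sources used here. The labels and the study's methods name different library kits. Counts were TMM-scaled over 4 libraries in edgeR 4.0.16 (R 4.3.3, prior count of 2) for genes with a mean count of at least 10. Counting intervals are exact Clopper-Pearson intervals (scipy 1.17.1) at 95%, and a count of 0 was given a floor of 3 counts, 0.0815 CPM at passage 3 and 0.0836 CPM at passage 9. Both cover counting error only. Even counts were in excess (1339 genes with 2 counts and 583 with 3 at passage 3), as where both mates of a pair are counted. The floor is then 6 counts, bounds on folds are 2 times smaller and the printed 95% intervals are too narrow. With 1 library per group no test was run. Scaling and intervals were tested on simulated data. DESeq2 1.42.0 size factors and other scalings, filters and the deposited FPKM were alternatives. The members of the gene lists and the rules were chosen with earlier results of these data known. Named genes are the 12 largest rises and falls in DPCs among protein-coding genes with at least 100 counts in the higher library, ranked by the interval end nearest 0, list members changed 4-fold (otherwise up to 4 with the largest change), all papilla signature genes, the 10 genes the study named and the 8 most abundant genes of each library. Some genes that these rules name are not reported here. Others named beside them, the chromosome and transcript length summaries and the replication and interferon promoters were chosen after the values were seen.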

Additional observations from a re-analysis of the deposited data

Results flagged for a closer look

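Of the genes named by the rule, 8 were at least 2-fold higher at passage 9 in one cell type and at least 2-fold lower in the other, with counting intervals on opposite sides of 0. The difference was not tested, since each group is 1 library. The change in DPCs minus the change in DSCs was -9.53 on the log2 scale for Cdh4, which had 16 and 0 counts in DPCs and 0 and 180 in DSCs, and -7.97 for Lum, which had 8 and 0 counts in DPCs and 0 and 109 in DSCs. These values rest on small counts in DPCs and on the prior count. The difference was -5.84 for Col10a1 (2863 and 276 counts in DPCs, 1526 and 10483 in DSCs), -5.35 for Myh11 (2882 and 168, 1063 and 3160) and -2.92 for Nt5e (260 and 86, 920 and 2887). It was 4.31 for Igfbp3 (842 and 6947, 754 and 385), 4.49 for Enpp2 (25 and 207, 34 and 13) and 5.998 for Ebf2 (13 and 127, 42 and 5), a transcription factor of brown fat precursors.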

How the results depend on the processing

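With 1 library per group the limits are those of counting and of processing, and passage, culture and library cannot be told apart. The number of genes at least 4-fold higher or lower, 933 and 730, kept within 1.5 times under every scaling tried. It was 378 and 377 with a mean count of at least 100, 177 and 177 on the deposited FPKM with a pseudocount of 1, 1580 higher without a filter on low counts, and 474 lower with a prior count of 10. A median at or below -1 was found for 7 of 48 program lists, and for 4 on the FPKM with a pseudocount of 1, which shrinks low genes by construction. Without chromosomes 4 and 16, an alternative chosen after seeing the data, 7 lists again reached it, 6 of them the same. Without the fifth of genes with the shortest transcripts, also chosen later, the same 7 lists reached it. No named gene called at 4-fold changed sign under any alternative run; of 232 such genes 205 stayed past 4-fold under every count-based alternative that held them, and 103 when the FPKM alternatives were included. Of 306 named genes whose counting interval excluded 0, 302 still did with counts halved. No paired analysis was possible because each group has 1 library and the labels give no replicate numbers.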
